A study of Rattus norvegicus with 9 samples.

Results

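The fibrillar collagen genes examined were *Col1a1*, *Col1a2*, *Col3a1*, *Col5a1*, *Col5a2*, *Col5a3* and *Col11a1*, 7 of the 32883 genes in the deposited tables. They were chosen by gene symbol, which matched 6 of them. *Col1a2* is listed as NEWGENE_621351 (ENSRNOG00000011292) and was matched through its Entrez identifier, 84352, in the RefSeq gene table. RNA was sequenced from 9 samples of cultured wild-type rat fibroblasts, with 3 samples each of Fb-Epn from the epineurium, Fb-Par from the nerve parenchyma and Fb-Skn from abdominal skin. Epineurium and parenchyma were separated by hand from the sciatic nerves of 2 male Lewis rats aged 10 weeks, and the skin came from 1 other male of the same age. The dissociated cells were grown on uncoated plastic in serum-containing medium and passaged 1 time before RNA was taken. The study set out to measure the effect of nerve fibroblasts on neurite outgrowth and to describe their molecular features. Since the rats were so few, 3 samples cannot stand for 3 animals, and SDs and p-values measure only the spread between samples, which may be technical. Tissue, rat and body site differ together between the nerve types and Fb-Skn and cannot be told apart.

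Fibrillar collagens form the cross-banded fibrils that give connective tissue its tensile strength. Each molecule is a triple helix of chains made as procollagens, which are hydroxylated and folded in the endoplasmic reticulum, exported, trimmed of their propeptides and crosslinked. Type I is the main fibril former of skin, tendon and nerve sheaths, type III is mixed into the same fibrils, and types V and XI are minor chains that help to start fibrils and limit their diameter. In peripheral nerve, fibroblasts of the epineurium and endoneurium lay down such fibrils around the fascicles and between the axons.

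Total counts ranged from 10084584 to 12310506 per library. Levels are given as the deposited TPM (counts divided by gene length and scaled to a fixed sum), which allow comparison between genes. The counts of 13273 genes, all 7 collagen genes among them, were tested between types with edgeR's quasi-likelihood test. A gene was called at a Benjamini-Hochberg adjusted p under 0.01, and as a DE gene if its log2 fold change besides exceeded 2 in size. An exact permutation test of 3 samples against 3 has p = 0.10 as its floor.

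The genes ranged widely in abundance. *Col1a1* ranked 1 by TPM among all genes in every Fb-Epn and Fb-Skn library and 3 in every Fb-Par library, while *Col11a1* ranked 4362 to 4527 in Fb-Skn. Together the 7 genes took 9.24%, 9.31% and 9.19% of all counts in Fb-Epn replicates 1 to 3, 7.12%, 7.35% and 7.23% in Fb-Par, and 8.95%, 9.62% and 9.21% in Fb-Skn. The Fb-Par libraries lay below all others in this share, while those of Fb-Epn and Fb-Skn overlapped. In bulk RNA, fewer cells of a type and less RNA per cell cannot be told apart.

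The make-up of this RNA differed between types. *Col1a1* made up 41.3% ± 0.889 (SD, n = 3) of the summed TPM of the 7 genes in Fb-Epn, 46.6% ± 1.08 for Fb-Par and 58.8% ± 2.40 for Fb-Skn. *Col3a1* made up 33.9% ± 0.339 in Fb-Epn, 28.3% ± 0.931 for Fb-Par and 12.5% ± 0.528 for Fb-Skn. The libraries of the 3 types did not overlap in either share. The type V genes *Col5a1*, *Col5a2* and *Col5a3* together made up 12.2% ± 0.0676, 12.6% ± 0.0564 and 13.0% ± 0.435 in the same order of types.

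Within each type the levels followed a nearly fixed order. In Fb-Epn and Fb-Par it was *Col1a1*, *Col3a1*, *Col1a2*, *Col5a2* and *Col5a1* from high to low, with no overlap of libraries between neighbours. Among Fb-Skn libraries *Col1a2* had a higher mean TPM than *Col3a1*, but their libraries overlapped, so this pair has no order beyond its spread. At the low end, *Col5a3* was above *Col11a1* in every Fb-Epn and Fb-Skn library, and *Col11a1* was above *Col5a3* in every Fb-Par library.

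**Figure D1:**
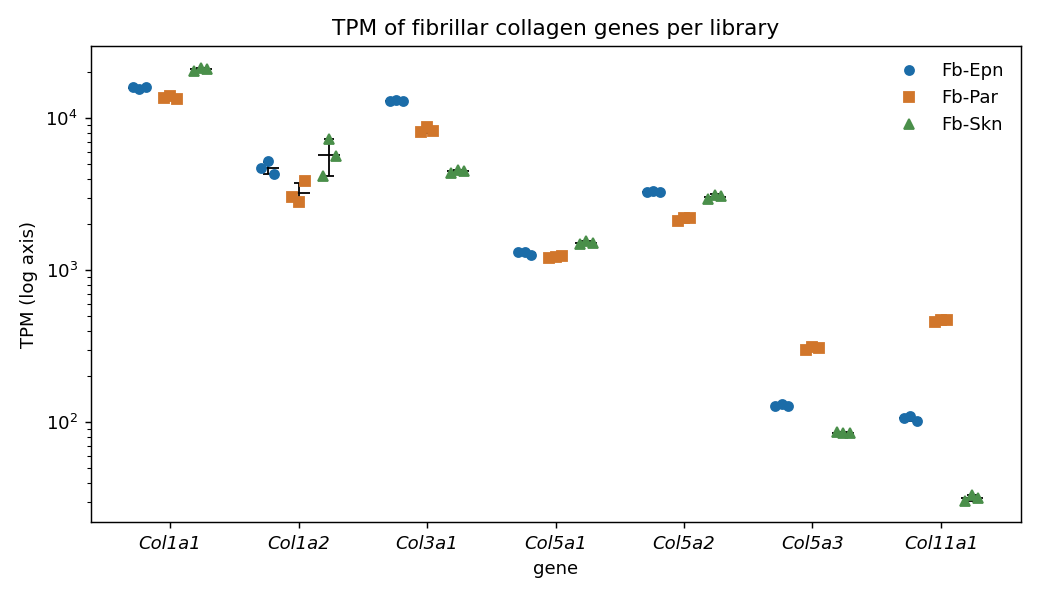
TPM of the 7 fibrillar collagen genes in each library on a log axis. Points are single libraries (3 per type) and bars are the mean with SD, hidden where smaller than the points. *Col11a1* ranges from 30.5 in Fb-Skn to 471 in Fb-Par, and only *Col1a2* has libraries of Fb-Epn and Fb-Skn that overlap.

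Against Fb-Skn, Fb-Epn had higher *Col3a1*, *Col5a3* and *Col11a1* and lower *Col1a1* and *Col5a1*. In this comparison 5 of 7 genes were called, where 43.9% of all tested genes were. The 3 higher genes stand beside 23.0% of tested genes called higher in Fb-Epn, and the 2 lower genes beside 20.9% called lower. None of the 7 was a DE gene, against 8.44% of tested genes. In TPM the libraries did not overlap for 6 of 7 genes, which held for 61.4% of tested genes. The median log2 fold change of the 7 genes was -0.04, and over all tested genes it was -0.0028.

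Against Fb-Par, Fb-Epn had lower *Col5a3* and *Col11a1* and higher levels of the other 5 genes. All 7 were called, where 38.8% of tested genes were. The 5 higher genes stand beside 20.2% of tested genes called higher in Fb-Epn, and the 2 lower genes beside 18.6% called lower. *Col11a1* was the 1 DE gene, against 6.48% of tested genes. The libraries of all 7 genes did not overlap in TPM, which held for 57.3% of tested genes. The median log2 fold change was 0.22 for the 7 genes and -0.00018 for all tested genes.

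Against Fb-Skn, Fb-Par had higher *Col3a1*, *Col5a3* and *Col11a1* and lower levels of the other 4 genes. All 7 were called, where 45.6% of tested genes were. The 3 higher genes stand beside 23.2% of tested genes called higher in Fb-Par, and the 4 lower genes beside 22.4% called lower. *Col11a1* was again the 1 DE gene, against 8.54% of tested genes. The libraries of all 7 genes did not overlap in TPM, which held for 61.7% of tested genes. The median log2 fold change was -0.46 for the 7 genes and -0.012 for all tested genes. The 3 comparisons share samples, so their counts do not support each other.

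**Figure D2:**
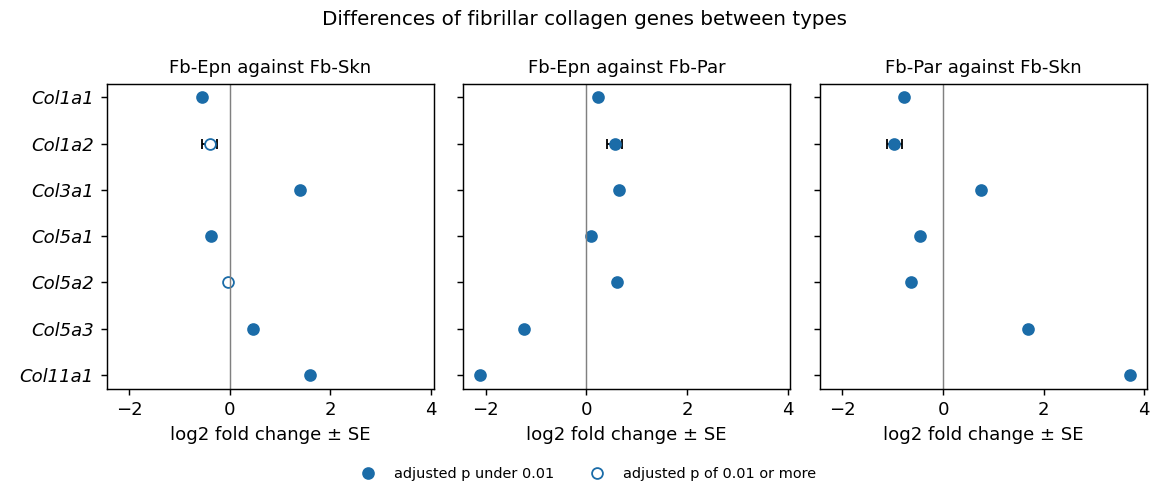
Log2 fold changes of the 7 fibrillar collagen genes in the 3 comparisons between types, from edgeR over all 9 libraries, with bars for the SE (hidden where smaller than the points). Filled points have an adjusted p under 0.01. *Col11a1* spans -2.12 to 3.72, while *Col5a2* lies at -0.04 in Fb-Epn against Fb-Skn, where its sign depends on the scaling.

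The genes of type I collagen come first. *Col1a1* (ENSRNOG00000003897, chromosome 10 of rn6, 82745801 to 82762789) encodes the α1 chain, of which a pair joins a single α2 chain in most type I molecules. Its TPM was 16016, 15646 and 15944 in Fb-Epn replicates 1 to 3, 13633, 14074 and 13464 in Fb-Par, and 20574, 21435 and 21224 in Fb-Skn. Fb-Skn was highest and Fb-Par lowest, with no overlap between types. The log2 fold change was -0.55 ± 0.02 (SE) in Fb-Epn against Fb-Skn (edgeR adjusted p = 1.5e-12) and -0.77 ± 0.02 in Fb-Par against Fb-Skn (edgeR adjusted p = 3.2e-14). Between the nerve types it was smaller, 0.22 ± 0.02 in Fb-Epn against Fb-Par (edgeR adjusted p = 6e-08). This gene alone took 5.87% ± 0.0181 (SD, n = 3) of all counts in Fb-Skn, 4.27% ± 0.0561 in Fb-Epn and 3.68% ± 0.0958 in Fb-Par.

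*Col1a2* (chromosome 4 of rn6, 31534225 to 31569151) encodes the α2 chain. Its TPM was 4680.1, 5190.1 and 4326 in Fb-Epn, 3045, 2790.0 and 3836 for Fb-Par, and 4171, 7277 and 5621 for Fb-Skn. Every Fb-Par library was below every Fb-Epn and Fb-Skn library, while Fb-Epn lay inside the range of Fb-Skn. The log2 fold change was -0.97 ± 0.15 (SE) in Fb-Par against Fb-Skn (edgeR adjusted p = 6e-05). In Fb-Epn against Fb-Par it was 0.56 ± 0.15 (edgeR adjusted p = 0.0053), and in Fb-Epn against Fb-Skn it was -0.40 ± 0.15 and not called (edgeR adjusted p = 0.031). These SEs are several times those of the other 6 genes.

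The spread of *Col1a2* between samples of a type stood out, a property singled out after its values were seen. Its coefficient of variation averaged 17.8% over the 3 types, the highest of 287 genes with a mean count above 5000, whose median was 2.31%. The next highest was *Dst* with 10.9%. *Col1a1* had 1.89% and *Col3a1* 2.32%. What sets this spread was not tested. The call in Fb-Epn against Fb-Par was lost without Fb-Epn replicate 1 (edgeR adjusted p = 0.015), Fb-Epn replicate 2 (0.027), Fb-Par replicate 1 (0.025) or Fb-Par replicate 2 (0.03). It was also lost in DESeq2 (0.03), in limma on log2(TPM + 1) (0.029), log2(TPM + 0.1) (0.03) and log2(FPKM + 1) (0.028), and when edgeR tested against a log2 fold change of 1, so in 9 of 23 alternatives. Leaving out Fb-Skn replicate 1, *Col1a2* was called lower in Fb-Epn than Fb-Skn (log2 fold change -0.57, edgeR adjusted p = 0.0016). It was also called there with all genes of at least 1 count tested (edgeR adjusted p = 2.3e-05) and at a threshold of 0.05. Over the 23 alternatives the adjusted p ranged from 2.1e-08 to 1 in Fb-Epn against Fb-Par and from 2.3e-05 to 1 in Fb-Epn against Fb-Skn.

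*Col3a1* (ENSRNOG00000003357, chromosome 9 of rn6, 52023295 to 52059217) encodes the chain of type III collagen, a homotrimer found with type I in extensible tissues. Its TPM was 12914, 13119 and 13039 in Fb-Epn, 8113, 8754 and 8177 for Fb-Par, and 4382, 4554 and 4471 for Fb-Skn. The order was Fb-Epn, Fb-Par and Fb-Skn from high to low, and no library of a type overlapped those of another. Fb-Epn was 2.65-fold higher than Fb-Skn, with a log2 fold change of 1.40 ± 0.03 (SE, edgeR adjusted p = 4.4e-15). The log2 fold change was 0.75 ± 0.03 in Fb-Par against Fb-Skn (edgeR adjusted p = 3.3e-12) and 0.65 ± 0.03 in Fb-Epn against Fb-Par (edgeR adjusted p = 2e-11).

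Most leukocyte markers, and their summed TPM, had the same order of types as *Col3a1*. Of the 8 listed leukocyte genes, *Itgam* was matched by its Entrez identifier to a row with the symbol *Itgad*. All 8 were called higher in Fb-Epn than Fb-Skn and also than Fb-Par, and 7 of 8 were higher in Fb-Par than Fb-Skn. Their summed TPM was 319, 324 and 351 in Fb-Epn, 91.2, 89.5 and 90.2 for Fb-Par, and 25.8, 27.5 and 26.7 for Fb-Skn. *Cd68*, the most abundant over all libraries, had a mean TPM of 153 ± 7.42 (SD, n = 3), 27.8 ± 2.62 and 7.87 ± 1.14 in the same order, and *Ptprc*, the common leukocyte antigen, 5.80, 1.44 and 0.361. *C1qa* was above it in Fb-Par (30.8) and *Cd14* in Fb-Skn (9.17). *Cd163* broke this order, with a mean TPM of 8.81, 0.0713 and 0.279, and was not called between Fb-Par and Fb-Skn, whose libraries overlapped. No listed leukocyte gene was at 0 in all libraries of a type. The part of these cells in the *Col3a1* difference was not tested.

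*Col3a1* and *Col5a2* are neighbours on chromosome 9 of rn6, on opposite strands and with their 3′ ends facing each other, 33.3 kb apart with 0 listed genes between them. Their order of types differed, since *Col5a2* was not higher in Fb-Par than Fb-Skn.

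The type V genes differed among themselves. *Col5a1* (ENSRNOG00000008749, chromosome 3 of rn6, 6430201 to 6578882) encodes the α1(V) chain, found in nearly all type V molecules. Its TPM was 1309, 1312 and 1251 in Fb-Epn, 1205, 1213 and 1235 for Fb-Par, and 1481, 1550.5 and 1499 for Fb-Skn. The types spanned a narrow range, with Fb-Skn above the nerve types and no overlap. The log2 fold change was -0.37 ± 0.02 (SE) in Fb-Epn against Fb-Skn (edgeR adjusted p = 7.9e-09) and -0.46 ± 0.02 in Fb-Par against Fb-Skn (edgeR adjusted p = 5.1e-10). In Fb-Epn against Fb-Par it was 0.09 ± 0.02 (edgeR adjusted p = 0.0044). That call was lost without Fb-Epn replicate 1 (0.021), Fb-Epn replicate 2 (0.024), Fb-Par replicate 1 (0.021) or Fb-Par replicate 2 (0.013). It was also lost in limma on log2(TPM + 1) (0.042), log2(TPM + 0.1) (0.043) and log2(FPKM + 1) (0.024), and when edgeR tested against a log2 fold change of 1, so in 8 of 23 alternatives. The adjusted p over them ranged from 0.00068 to 1.

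*Col5a2* (ENSRNOG00000003736, chromosome 9 of rn6, 52092511 to 52238564) encodes the α2(V) chain. Its TPM was 3249.8, 3336 and 3252 in Fb-Epn, 2114, 2215 and 2210.5 for Fb-Par, and 2941, 3130.4 and 3087 for Fb-Skn. Fb-Par was clearly lowest. The log2 fold change was 0.60 ± 0.02 (SE) in Fb-Epn against Fb-Par (edgeR adjusted p = 2.6e-11) and -0.64 ± 0.02 in Fb-Par against Fb-Skn (edgeR adjusted p = 1.1e-11). In Fb-Epn against Fb-Skn it was -0.04 ± 0.02 and not called (edgeR adjusted p = 0.21), although in TPM all Fb-Epn libraries lay above those of Fb-Skn. Over all tested genes the median log2 difference in this comparison was 0.13 in limma on log2(TPM + 1) and -0.0028 in edgeR. The direction of *Col5a2* between Fb-Epn and Fb-Skn thus depends on the scaling, and no alternative called it.

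*Col5a3* (ENSRNOG00000020525, chromosome 8 of rn6, 21786324 to 21831668) encodes the α3(V) chain, a chain of more restricted expression that is known from nerve and muscle. Its TPM was 127, 131 and 128 in Fb-Epn, 298, 311 and 305 for Fb-Par, and 85.8, 85.4 and 84.9 for Fb-Skn. Fb-Par was highest, Fb-Epn next and Fb-Skn lowest, without overlap. The log2 fold change was 1.69 ± 0.03 (SE) in Fb-Par against Fb-Skn (edgeR adjusted p = 4.4e-15), -1.23 ± 0.03 in Fb-Epn against Fb-Par (edgeR adjusted p = 1.7e-13) and 0.45 ± 0.03 in Fb-Epn against Fb-Skn (edgeR adjusted p = 1.6e-08). Its level stayed far below those of *Col5a1* and *Col5a2* in every library.

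*Col11a1* (ENSRNOG00000023148, chromosome 2 of rn6, 216863428 to 217056523) encodes the α1(XI) chain, a minor fibrillar chain best known from cartilage that can also join type V chains. Its TPM was 106, 109.8 and 102 in Fb-Epn, 456, 467 and 471 for Fb-Par, and 30.5, 33.0 and 31.8 for Fb-Skn. The types had the same order as for *Col5a3*, and were farther apart. Fb-Par was 13.2-fold higher than Fb-Skn, with a log2 fold change of 3.72 ± 0.04 (SE, edgeR adjusted p = 6.8e-18). It was 4.35-fold higher than Fb-Epn (log2 fold change -2.12 ± 0.03 in Fb-Epn against Fb-Par, edgeR adjusted p = 9.4e-16). Fb-Epn in turn was 3.03-fold higher than Fb-Skn, with a log2 fold change of 1.60 ± 0.04 (SE, edgeR adjusted p = 3.8e-14). *Col11a1* had at least 1169 counts in every library.

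Most Schwann cell markers, and their summed TPM, had the same order of types as *Col5a3* and *Col11a1*. All 8 tested Schwann cell genes were called higher in Fb-Par than Fb-Skn, 7 were called higher in Fb-Epn than Fb-Skn and 7 were called lower in Fb-Epn than Fb-Par. Their summed TPM was 581, 563 and 585 in Fb-Epn, 799, 792 and 814 for Fb-Par, and 273, 284 and 288 for Fb-Skn. The most abundant, *Pmp22*, is also expressed by fibroblasts and had a mean TPM of 543 ± 11.1 (SD, n = 3) in Fb-Par, 380.4 ± 16.5 in Fb-Epn and 269.6 ± 8.66 in Fb-Skn. *Sox10*, *Erbb3* and *Cdh19* had 0 counts in every Fb-Skn library. *Sox10* had a mean TPM of 30.9 in Fb-Par and 14.5 in Fb-Epn, and *Erbb3* 15.6 and 7.10. *S100b*, the next most abundant after *Pmp22*, broke this order, with a mean TPM of 129.6 in Fb-Epn, 119 for Fb-Par and 7.96 for Fb-Skn. It was not called between the nerve types, whose libraries overlapped. The part of Schwann cells in the differences of *Col5a3* and *Col11a1* was not tested.

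Ratios within a library do not depend on the scaling between libraries, so 6 ratios of TPM were compared over the 3 types with exact permutation tests (1680 arrangements, Benjamini-Hochberg over 6 ratios). Of these, 5 reached p = 0.0036, the smallest that the arrangements allow (exact permutation, adjusted p = 0.0043). The ratio of *Col1a2* to *Col1a1* did not differ beyond its spread (exact permutation p = 0.38, adjusted p = 0.38). It was 0.298 ± 0.0307 (SD, n = 3) in Fb-Epn, 0.235 ± 0.0446 for Fb-Par and 0.269 ± 0.0685 for Fb-Skn.

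*Col3a1* to *Col1a1* was 0.821 ± 0.0163 (SD, n = 3) in Fb-Epn, 0.608 ± 0.0135 for Fb-Par and 0.212 ± 0.00123 for Fb-Skn. Among the ratios to *Col1a1* this was the 1 with the widest gaps between types. *Col5a1* to *Col1a1* moved little in size, from 0.0717 ± 0.000901 in Fb-Skn to 0.0814 ± 0.00273 in Fb-Epn and 0.0888 ± 0.00282 in Fb-Par. The types still did not overlap.

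Among the type V chains, *Col5a2* to *Col5a1* was 2.54 ± 0.0589 (SD, n = 3) in Fb-Epn, 1.79 ± 0.0363 for Fb-Par and 2.02 ± 0.0371 for Fb-Skn. *Col5a3* to *Col5a1* was 0.0998 ± 0.00276 in Fb-Epn, 0.250 ± 0.00528 for Fb-Par and 0.0566 ± 0.00142 for Fb-Skn. Relative to *Col5a1*, Fb-Par therefore had the least *Col5a2* RNA and the most *Col5a3* RNA. *Col11a1* to *Col5a1* was 0.0821 ± 0.00143 in Fb-Epn, 0.382 ± 0.00330 for Fb-Par and 0.0210 ± 0.000384 for Fb-Skn, an 18.2-fold span between Fb-Par and Fb-Skn. For each of these 5 ratios the libraries of no pair of types overlapped, and each pairwise exact permutation p was 0.10, the smallest possible with 3 against 3.

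**Figure D3:**
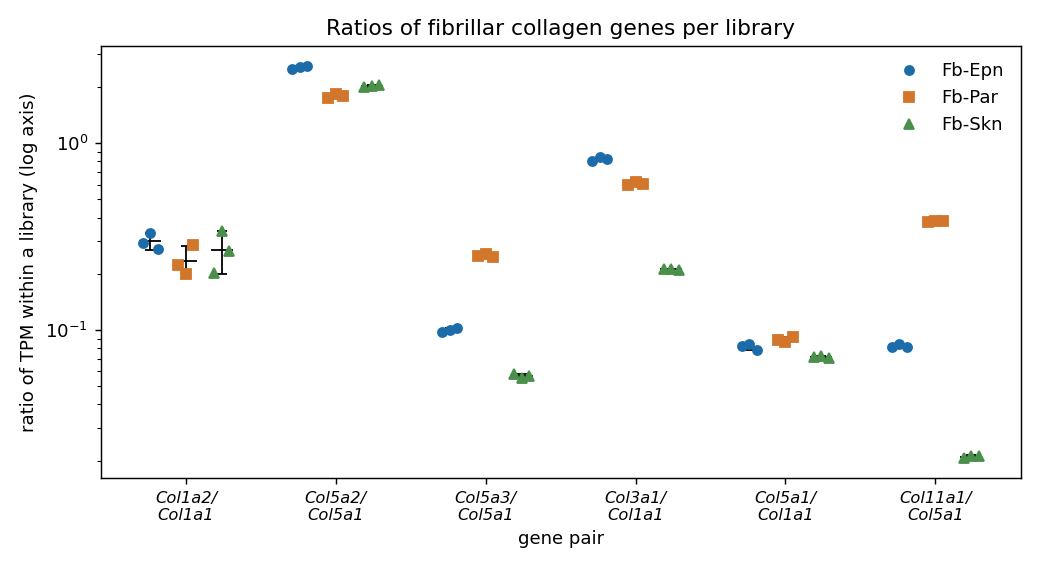
Ratios of TPM of 6 pairs of fibrillar collagen genes within each library, on a log axis. Points are single libraries (3 per type) and bars are the mean with SD, hidden where smaller than the points. The types overlap for *Col1a2* to *Col1a1* and are apart for the other 5 ratios.

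The other fibrillar collagen genes had lower mean TPM than the 7 in every type. *Col27a1* had a mean TPM of 18.1 ± 1.47 (SD, n = 3) in Fb-Epn, 15.3 ± 1.09 for Fb-Par and 17.6 ± 0.889 for Fb-Skn, and was called lower in Fb-Par than Fb-Skn (log2 fold change -0.35, edgeR adjusted p = 0.0012). *Col24a1* had 6 to 15 counts in Fb-Epn, 1 to 4 for Fb-Par and 16 to 20 for Fb-Skn. At this depth it was called lower in Fb-Par than Fb-Skn (log2 fold change -3.31 ± 0.55, edgeR adjusted p = 0.00013) and higher in Fb-Epn than Fb-Par (2.46 ± 0.59, edgeR adjusted p = 0.0029). *Col11a2*, whose chain pairs with α1(XI) in cartilage, had a mean TPM of at most 1.77 in any type and was not called in any comparison. *Col2a1*, the main cartilage collagen, had at most 1 count in any library and was not tested.

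The genes whose levels were most like each of the 7 were named by Pearson's r of log2(TPM + 1) over the 9 libraries, among 8872 genes with a mean TPM of at least 10. The 9 points fall into 3 types, so a high r mostly reflects the order of the types. For *Col11a1* they were *Thbd*, *Foxs1* and *Lama2* (r = 0.999, 0.999 and 0.999), and for *Col5a3* they were *Prss23*, *Akap12* and *Lum* (r = 0.999, 0.999 and 0.999). For *Col3a1* they were *Errfi1*, *C1qa* and *Sgcb* (r = 0.998, 0.998 and 0.998), of which *C1qa* is in the leukocyte list. For *Col1a1* they were *Pmepa1*, *Srpx* and *Tsc22d2* (r = 0.997, 0.996 and 0.995), and for *Col5a2* they were *Ttc7a*, *Tnc* and *Galk1* (r = 0.995, 0.995 and 0.993). *Col5a1* was most like *Calu*, *Chd3* and *Rcn1* (r = 0.990, 0.988 and 0.986). *Col1a2* had the lowest values, with *Brpf1*, *Ddx3x* and *Afdn* (r = 0.978, 0.954 and 0.926).

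Since *Col5a3* and *Col11a1* had the same order of types and *Col5a2* another, the bases before their annotated starts are shown. Promoter windows of RefSeq, build GRCr8, were found for 5 of the 7 genes, and *Col1a1* and *Col3a1* have no entry. The 250 bases before the start were searched on both strands for the CCAAT motif, the GGGCGG motif and the TATAAA motif, chosen after the levels were seen. Over all 33469 promoter windows, 34.0% held CCAAT, 30.5% held GGGCGG and 12.9% held TATAAA. *Col11a1* (chr2:204508886-204509135, plus strand) held 2 CCAAT and 3 GGGCGG matches, and *Col5a3* (chr8:27625949-27626198, minus strand) 1 and 3. *Col5a2* (chr9:55090152-55090401, minus strand) held none of these motifs. *Col5a1* held 1 GGGCGG, and *Col1a2* held 1 CCAAT and 1 TATAAA. GC content was 65.6% for *Col11a1*, 68.8% for *Col5a3*, 44.8% for *Col5a2*, 58.4% for *Col1a2* and 71.6% for *Col5a1*. Any link of these sequences to the levels was not tested. The sequences run 5′ to 3′ on the strand of the gene with matches in capitals, and a match is a description of letters only.
Col11a1: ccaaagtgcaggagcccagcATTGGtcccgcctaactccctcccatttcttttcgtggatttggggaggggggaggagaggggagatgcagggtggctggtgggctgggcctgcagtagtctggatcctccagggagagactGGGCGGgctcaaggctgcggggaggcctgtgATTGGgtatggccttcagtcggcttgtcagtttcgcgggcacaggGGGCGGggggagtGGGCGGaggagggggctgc
Col5a3: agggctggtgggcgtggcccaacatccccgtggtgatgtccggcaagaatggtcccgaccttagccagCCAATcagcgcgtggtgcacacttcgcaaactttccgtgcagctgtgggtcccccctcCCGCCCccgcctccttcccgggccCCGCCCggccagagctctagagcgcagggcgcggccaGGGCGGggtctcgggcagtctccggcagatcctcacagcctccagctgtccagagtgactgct
Col5a2: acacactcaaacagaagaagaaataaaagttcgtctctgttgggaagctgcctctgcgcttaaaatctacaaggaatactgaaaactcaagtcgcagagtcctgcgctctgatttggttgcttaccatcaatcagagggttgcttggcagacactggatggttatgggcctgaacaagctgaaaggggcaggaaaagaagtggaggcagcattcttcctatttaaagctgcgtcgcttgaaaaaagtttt

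Genes of procollagen processing, fibril partners, collagen receptors and breakdown, TGF-beta signalling and the other fibrillar collagens were listed, 80 tested genes in 9 lists. Of these, 22 were called higher and 35 lower in Fb-Epn against Fb-Skn, 30 higher and 24 lower in Fb-Epn against Fb-Par, and 27 higher and 41 lower in Fb-Par against Fb-Skn. Among all tested genes 23.0% were called higher and 20.9% lower, 20.2% and 18.6%, and 23.2% and 22.4% in this order, and the counts of each list stand beside these shares. No test compared the lists. In folding and hydroxylation of the chains, 13 of 15 genes were lower and 1 was higher in Fb-Par than Fb-Skn (median log2 fold change -0.50). In Fb-Epn against Fb-Par 11 of 15 were higher and 0 lower (median 0.34), and against Fb-Skn 3 were higher and 7 lower (median -0.33). *Serpinh1*, the collagen chaperone, had a mean TPM of 3185 in Fb-Epn, 2954 for Fb-Par and 4176 for Fb-Skn, with Fb-Skn highest as for *Col1a1*. *P4ha3*, a prolyl hydroxylase, was lower in Fb-Par than Fb-Skn (log2 fold change -1.97), while *Plod2*, a lysyl hydroxylase, was higher in Fb-Epn than Fb-Skn (2.02) and Fb-Par (1.08), an order of types like that of *Col3a1*.

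In procollagen export, 8 of 9 genes were lower and 1 higher in Fb-Par than Fb-Skn (median -0.30), and 7 were lower and 1 higher in Fb-Epn (median -0.29). Between the nerve types 2 were higher in Fb-Epn and 0 lower (median 0.02). Of 6 propeptide removal genes, 2 were higher and 3 lower in Fb-Epn against Fb-Skn (median -0.30), 0 and 4 in Fb-Epn against Fb-Par (-0.41), and 3 and 3 in Fb-Par against Fb-Skn (0.47). *Adamts2*, which cleaves the amino propeptide, was highest in Fb-Skn (log2 fold change -1.43 in Fb-Epn and -0.57 in Fb-Par), and *Tll1* was highest in Fb-Par (2.22 against Fb-Skn). Of 5 crosslinking enzymes, 2 were higher and 2 lower in Fb-Epn against Fb-Skn (median -0.07), 2 and 3 in Fb-Epn against Fb-Par (-0.18), and 2 and 2 in Fb-Par against Fb-Skn (-0.02). *Loxl1* was higher in Fb-Skn than in either nerve type, and *Loxl2* was highest in Fb-Par.

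Of 14 fibril surface genes, 6 were higher and 4 lower in Fb-Epn against Fb-Skn (median 0.14), 5 and 6 in Fb-Epn against Fb-Par (-0.16), and 8 and 4 in Fb-Par against Fb-Skn (0.90). *Aspn*, called lower in Fb-Epn than Fb-Par (log2 fold change -2.90), was uneven between the Fb-Par libraries (TPM of 12.2, 1.53 and 0.941). *Ogn*, called higher in Fb-Par than Fb-Skn (4.05), was uneven there too (8.53, 6.62 and 76.6). *Col14a1* was higher in Fb-Epn than Fb-Skn (log2 fold change 3.88) and *Col12a1* was lower (-1.90). Of 8 collagen receptor genes the counts were 3 and 3 (median 0.01), 3 and 4 (-0.22), and 5 and 3 (0.50) in the same comparisons. *Itga1*, a collagen-binding integrin chain, was highest in Fb-Par (log2 fold change 2.84 against Fb-Skn), and *Itga10* too (5.04). The breakdown list mixes proteases with their *Timp* inhibitors, so its counts give no direction of breakdown. Of its 7 tested genes the counts were 1 and 5 (-0.20), 4 and 3 (0.29), and 2 and 4 (-0.23). The inhibitor *Timp3* was lowest in Fb-Epn (mean TPM of 33.1, 549 for Fb-Par and 306 for Fb-Skn). The inhibitor *Timp1* was highest there (1981, 922 and 412). Of 13 TGF-beta genes, a pathway known to raise collagen transcription, the counts were 4 and 4 (-0.0023), 2 and 4 (-0.02), and 5 and 2 (0.15). *Tgfb3* was higher in Fb-Skn than in Fb-Epn or Fb-Par. Of the 3 other fibrillar genes tested, they were 0 and 0 (-0.85), 1 and 0 (0.25), and 0 and 2 (-0.41). Over all tested genes the medians were -0.0028, -0.00018 and -0.012 in this order.

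The label of fibroblast was checked against markers. *Vim* had a mean TPM of 7794 in Fb-Epn, 5286 for Fb-Par and 9317 for Fb-Skn, *Thy1* 710.2, 1006 and 3095, and *Pdgfra* 151, 137 and 80.5. All 8 listed fibroblast genes had counts in every library, but not all were high. *Pi16* had a mean TPM of 20.0, 13.9 and 5.95, *Fap* 32.5, 24.8 and 15.2, and *Dpt* was nearly absent from Fb-Epn (1.47, 35.3 and 20.9). Mural cell genes summed to a TPM of 3405, 5378 and 10459.8, nearly all of it *Acta2* (3357, 5051 and 10307), a gene also made by activated fibroblasts, with *Rgs5* and *Kcnj8* at 0 counts in Fb-Skn. *Rgs5* (4.49, 14.9 and 0) and *Notch3* (6.35, 72.5 and 1.55) had the order of *Col5a3* and *Col11a1*. The more abundant *Myh11* (24.6, 163.6 and 124.8) and *Cspg4* (8.48, 73.1 and 26.4) did not, being lowest in Fb-Epn. Of 8 mural cell genes, 5 were higher and 3 lower in Fb-Epn against Fb-Skn, 1 and 5 in Fb-Epn against Fb-Par, and 6 and 1 in Fb-Par against Fb-Skn.

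Perineurial genes summed to 212, 91.2 and 119.9, led by *Slc2a1* in Fb-Epn and Fb-Skn and by *Tjp1* in Fb-Par, with a mean *Cldn1* of at most 0.324. Endothelial genes summed to 15.6, 11.1 and 1.26, the order of *Col3a1*, with *Cdh5* at 0 counts in Fb-Skn. They were led by *Tek* (8.37, 10.2 and 1.20), which had the order of *Col5a3* and *Col11a1* in mean TPM. Of 3 tested endothelial genes, 3 were higher in Fb-Epn than Fb-Skn. Between Fb-Epn and Fb-Par 2 were higher and 0 lower, and in Fb-Par against Fb-Skn also 2 and 0. Chondrocyte genes summed to 97.1, 22.2 and 15.4, led by *Sox9* (93.4, 16.6 and 14.2), with *Matn1* at 0 counts in every library. The chondrocyte sum and *Sox9* had the order of types of *Col3a1* in mean TPM, not that of *Col11a1*. *Acan* had the order of *Col11a1* (0.478, 1.66 and 0.182) and was called in all 3 comparisons. *Comp* was also highest in Fb-Par in mean TPM (0.847, 2.20 and 0.740), while its Fb-Epn and Fb-Skn libraries overlapped. Of 4 tested chondrocyte genes, 3 were higher in each nerve type against Fb-Skn, and between Fb-Epn and Fb-Par 1 was higher and 2 were lower. Keratinocyte genes summed to 2.70, 3.94 and 3.70, led by *Krt10*. *Krt5* had 0 counts in both nerve types and at most 2 in any Fb-Skn library. *Krt14* had 9 to 17 counts in the Fb-Skn libraries and at most 1 in any library of the nerve types. Muscle cell genes summed to 8.67, 86.3 and 2.54, nearly all *Acta1*, the only tested gene of this list, which also had the order of *Col11a1*. *Myod1* and *Myf5* had 0 counts in every library. Their part in the collagen differences was not tested.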

How the data were processed

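RNA was measured in 9 libraries, 3 per type, grouped by the sample labels. Per the submitters' processing notes, the tools were FastQC 0.11.7, Trimmomatic 0.38, HISAT2 2.1.0 and featureCounts 1.6.3, with genome build rn6. The annotation release and the strand setting of the counting are not given in the sources used here. The authors deposited raw counts per gene, and the deposited TPM of a gene is its count divided by a fixed length and scaled. The deposited FPKM is not a rescaling of these counts and served only as an alternative.

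The counts went into edgeR 4.0.16 under R 4.3.3 (TMM, default expression filter, quasi-likelihood F test, all 9 libraries in 1 model, Benjamini-Hochberg adjustment within a comparison). The SE of a log2 fold change is its size divided by the square root of F. Within types, edgeR's common dispersion corresponds to a CV of 8.25%. Ratios were tested by two-sided exact permutation of the log2 ratio. DESeq2 1.42.0 and limma 3.58.1 (pseudocounts of 1 and 0.1) were alternatives, as were other scalings, filters and thresholds, and each library left out. Tables and figures used Python 3.11.15 with numpy 2.4.6, pandas 2.3.3, matplotlib 3.10.9 and scipy 1.17.1. The edgeR and permutation steps were tested on simulated data.

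The collagen genes, the 9 pathway lists, the 9 marker lists and the rule for named genes were chosen with earlier results of these data known. The rule took, from each pathway list, the most abundant gene and up to 2 called genes with the largest change per comparison, from each marker list the most abundant gene and the first 2 listed, and for each collagen gene the 3 most similar genes. Not all genes it allows are named. Further marker genes are named where they had 0 counts or, chosen after seeing the values, where their order of types matched or broke that of a collagen gene, or where a fibroblast gene was low. *Pcolce2*, *Tnxb*, *Foxd3* and *Pecam1* were listed but are not in the tables, and were not analysed here. Besides *Col1a2*, the listed *Itgam*, *Crtap* and *Mia3* were matched by Entrez identifier, to rows with the symbols *Itgad*, *Crtapl1* and AABR07021988.1.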

Additional observations from a re-analysis of the deposited data

How the results depend on the processing

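Across the 23 alternatives of each gene and comparison, 448 values kept their direction and side of the threshold, 28 kept their direction but were no longer called, 3 were newly called and 4 changed direction. All 4 concern *Col5a2* in Fb-Epn against Fb-Skn, whose log2 fold change was -0.04 in edgeR, 0.053 with library size only, 0.10 in limma on log2(TPM + 1), 0.10 in limma on log2(TPM + 0.1) and 0.039 in limma on log2(FPKM + 1), called in none. When edgeR tested against a log2 fold change of 1, 2 genes were called in each comparison in place of 5, 7 and 7, *Col3a1* and *Col11a1* in Fb-Epn against Fb-Skn and *Col5a3* and *Col11a1* in the others. Of all 13273 tested genes, 1392 were called in Fb-Epn against Fb-Skn, 1137 in Fb-Epn against Fb-Par and 1412 in Fb-Par against Fb-Skn. Leaving out 1 library at a time, 5 to 6 genes were called in Fb-Epn against Fb-Skn, 5 to 7 in Fb-Epn against Fb-Par and 7 to 7 in Fb-Par against Fb-Skn. In the same order, 5178 to 5829, 4449 to 5220 and 5370 to 5989 of all 13503 to 13542 tested genes were called. Taking the replicate number as a replicate block, 5, 7 and 7 genes were called, and 5580, 4859 and 5799 genes over all. Same-numbered samples deviated together with r from -0.080 to 0.020, and differently numbered ones with r from -0.045 to 0.089. No pairing by number was seen. These are deviations from means of 3 libraries, so they cannot show that the samples are unpaired.

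Of 21 comparisons of levels (7 genes, 3 pairs of types), 20 did not overlap in TPM or FPKM, 19 on TMM-scaled counts and 20 to 21 with a library left out. The TMM-scaled counts, and the counts of genes called without *Col1a2* (5, 6 and 6 of 6), were chosen after seeing the data. The ratios kept 5 of 6 past an adjusted exact permutation p of 0.05 on FPKM, within the replicate block and with each library left out. Pathway genes called (57, 54 and 68) were counted only under 3 other scalings and an adjusted p of 0.05, and ranged from 57 to 60, 54 to 61 and 67 to 71. They were not counted under the other alternatives. The split of all called genes moved with the scaling. Against Fb-Skn, Fb-Epn had 3052 higher and 2778 lower genes under TMM, 3715 and 2113 with library size only, 3845 and 1731 in limma on log2(TPM + 1), 3816 and 1692 on log2(TPM + 0.1), and 3386 and 1969 on log2(FPKM + 1). Fb-Par had 3077 and 2975, 3737 and 2297, 3902 and 1931, 3887 and 1918, and 3451 and 2204. The other limits are the rats, since 3 samples of a type cannot be 3 animals, and the unstated strand setting. The cause of the changes with scaling was not tested.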
